A study of Rattus norvegicus with 15 samples.

Results

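Genes of thalamic neurons were followed through RNA sequencing counts of rat brain after vagus nerve stimulation (VNS). The list held 7 genes, Prkcd, Tcf7l2, Foxp2, Rorb, Lef1, Gbx2 and Zic1, chosen by their measured CPM (counts scaled to library size by TMM) in the hippocampal libraries of VNS and control rats. Of the 7 symbols, 6 matched a transcript record through RefSeq, each a single record among 18278. Tcf7l2 was not matched and is not analysed here. Stimulated rats had VNS for 30 min daily over 4 days, and controls had a sham device. The hippocampal libraries, 4 VNS and 3 control, are from rats given in addition a 10 min novelty task on days 2, 3 and 4. The cortical groups were 4 VNS and 4 control libraries. The labels read here name no strain or age, and they do not say whether each library is a separate animal.

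The thalamus relays sensory and motor signals to the cortex and lies directly beneath the hippocampus. Its relay neurons are glutamatergic and load their vesicles through Slc17a6, whereas cortical and hippocampal pyramidal neurons mainly use Slc17a7. The listed genes encode a kinase and transcription factors. Prkcd encodes protein kinase C delta, a lipid-activated signalling kinase abundant in sensory relay nuclei. Gbx2 is a homeobox factor needed for thalamic development, and Tcf7l2 and Lef1 are DNA-binding effectors of Wnt/beta-catenin signalling. Foxp2 is a forkhead repressor also present in striatal, cortical layer 6 and Purkinje neurons. Rorb is an orphan nuclear receptor also known from layer 4 of the cortex, and Zic1 is a zinc-finger factor also found in cerebellar granule cells.

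Hippocampal libraries held 16728486 to 51463555 counts, of which ribosomal and 7SL RNA records took 17.2% to 74.3%. VNS library 3 was the shallowest, with 4301901 counts outside those records. Control libraries 1 and 2 stood apart from the other 5 and went against their tissue label for most, not all, of the forebrain genes examined. Of a list of 13 hippocampal and forebrain excitatory neuron genes, 12 were tested. Their summed level was 502 and 231 CPM in control libraries 1 and 2, and 1954 to 3236 CPM in the other 5. None of these 12 was at 0 over the 7 libraries. Slc17a7 stood at 237 CPM in the first of these controls and 4.09 CPM in the second. Neurod6, singled out after its values were seen, was at 0.65 CPM and 1.05 CPM there. In the other 5 libraries Slc17a7 lay between 1006 and 1540 CPM. The differences of the listed genes, and of other genes where one is given, are therefore also stated without these 2 controls. Only control library 3 then remains, and its spread is taken from the VNS group.

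Prkcd showed the widest range of the 6 genes. Its levels were 794, 11.8 and 10.2 CPM in controls 1, 2 and 3, then 6.19, 41.2, 6.91 and 7.53 CPM in VNS libraries 1 to 4. Control library 1 stood 19.3-fold above VNS library 2, which came next. Control libraries 2 and 3 lay within the range of the VNS libraries, so the groups overlapped. The control mean was 272 ± 452 CPM (SD, n = 3) and the VNS mean 15.5 ± 17.2 CPM (SD, n = 4). The fitted difference, VNS minus control, was -4.12 on the log2 scale (SE 1.54). By limma-voom it was -2.22. It became 0.50 without control library 1, and 0.60 without both divergent controls. The direction of the Prkcd difference thus came from control library 1. In bulk tissue such as this, fewer cells of a type and less RNA per cell cannot be told apart. The record lies on chromosome 16 from 6588990 to 6608725 on the minus strand (rn5) and has 19 exons.

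Gbx2 was detected almost entirely in 3 libraries. Control libraries 1 and 2 held 280 and 94 counts (5.70 and 1.70 CPM), and VNS library 2 held 41 counts (1.99 CPM). Control library 3 and VNS libraries 3 and 4 held 0 counts, and VNS library 1 held 3. A count of 0 allowed up to 0.062 CPM in control library 3, 0.61 CPM in VNS library 3 and 0.074 CPM in VNS library 4, taking 3 counts as the limit. VNS library 3 was too shallow to exclude a level like that of VNS library 1 (0.044 CPM). The log2 difference was -2.24 (SE 1.77), the largest error among the 6 genes, and -0.71 without control library 1. Without control libraries 1 and 2 the remaining control is at 0 and no fold is given. Gbx2 lies on chromosome 9 from 96754123 to 96756581 on the minus strand, in 2 exons.

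Lef1 was at 27.3, 14.0 and 2.40 CPM in control libraries 1 to 3. VNS libraries 1 to 4 held 1.64, 4.86, 5.29 and 2.80 CPM. Control libraries 1 and 2 stood above every VNS library, while control library 3 lay below VNS libraries 2, 3 and 4. The log2 difference was -2.08 (SE 0.73), and it was 0.52 without control libraries 1 and 2. Lef1 is also expressed in brain endothelium, and 9 of 9 endothelial genes were tested. Their summed level was 350 to 470 CPM in controls and 287 to 427 CPM after VNS. Cldn5, a tight junction gene of that list, gave 56.9, 54.3 and 45.5 CPM in the controls. In VNS libraries 1 to 4 it gave 43.6, 59.5, 22.4 and 49.4 CPM. The part of endothelial RNA in the Lef1 values was not tested. Lef1 is on chromosome 2 from 254782387 to 254876426 (plus strand, 11 exons).

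Zic1 followed a similar order, with levels of 69.6, 14.5 and 2.92 CPM in controls 1, 2 and 3, then 3.24, 10.1, 3.66 and 2.73 CPM in VNS libraries 1 to 4. Control library 1 was 4.79-fold above control library 2, and VNS library 2 ranked next. Control library 3 lay within the VNS range. The log2 difference was -2.55 (SE 0.93), -0.82 without control library 1, and 0.75 without control libraries 1 and 2. The record is on chromosome 8 from 98226542 to 98229980 (minus strand, 3 exons).

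Foxp2 departed from the other genes in that control library 2 was the highest. The controls stood at 31.0, 34.9 and 7.31 CPM and the VNS libraries at 0.55, 8.64, 2.03 and 2.23 CPM. VNS library 2 exceeded control library 3, and the other 3 VNS libraries lay below every control. VNS library 3 held 10 counts of Foxp2, with an exact Poisson 95% interval of 0.97 to 3.74 CPM that covers counting error only. The log2 difference was -2.86 (SE 0.86). It remained negative without control libraries 1 and 2, at -1.13. Foxp2 extends over chromosome 4 from 40956160 to 41529474 on the plus strand, in 19 exons.

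Rorb varied least. Control libraries 1, 2 and 3 were at 75.7, 49.3 and 46.8 CPM and VNS libraries 1 to 4 at 26.2, 35.8, 45.1 and 34.2 CPM. All 4 VNS libraries lay below all 3 controls. The gap between control library 3 and VNS library 3 was within counting error, since the interval of the latter reached 51.5 CPM. The log2 difference was -0.70 (SE 0.23), and -0.43 without control libraries 1 and 2. Rorb lies on chromosome 1 from 241354340 to 241535913 (rn5, plus strand, 10 exons).

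**Figure D1:**
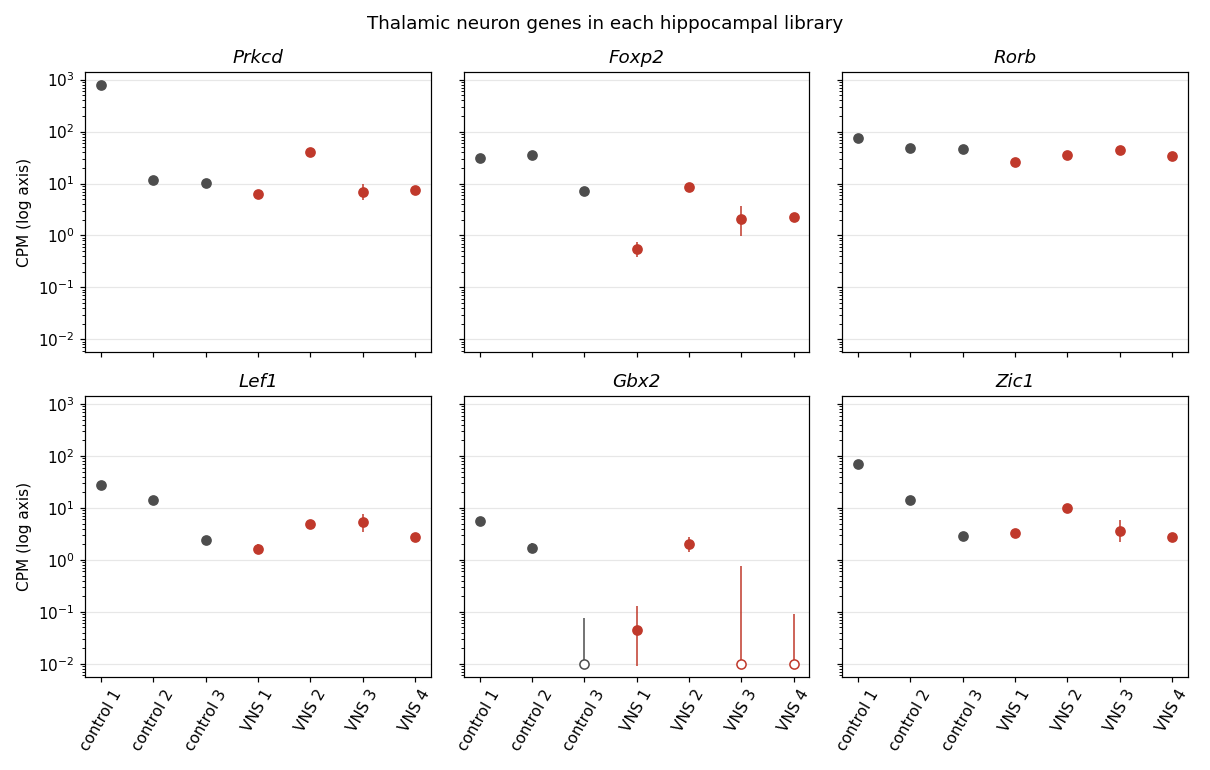
Level of each gene (CPM, log axis) in the 3 control libraries (grey) and 4 VNS libraries (red) of the hippocampus, with exact Poisson 95% intervals and open points for 0 counts. Prkcd reaches 794 CPM in control library 1 and 41.2 CPM in VNS library 2, whereas Rorb stays between 26.2 and 75.7 CPM.

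Because these libraries were used to choose the genes, the differences above are descriptions and carry no test. All 6 matched genes passed the filter on low counts, and all 6 had a negative difference, as had 50.8% of the 12728 records tested. Gbx2 passed through counts in control libraries 1 and 2 and VNS library 2 alone. Rorb was the only gene of the 6 whose VNS libraries all lay below the controls, which held for 4.61% of all records. None of the 6 had all VNS libraries above the controls (4.67% of records), and 9.28% of records were apart in either direction. With edgeR's quasi-likelihood test 0% of records passed an adjusted p of 0.05. Of the 12728 records, 1537 (12.1%) had an unadjusted p under 0.05. That number was 616 without control library 1, 655 without control library 2 and 3460 without control library 3. It was 105 of 13111 without both divergent controls. DESeq2 called 17 records and limma-voom 0.

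**Figure D2:**
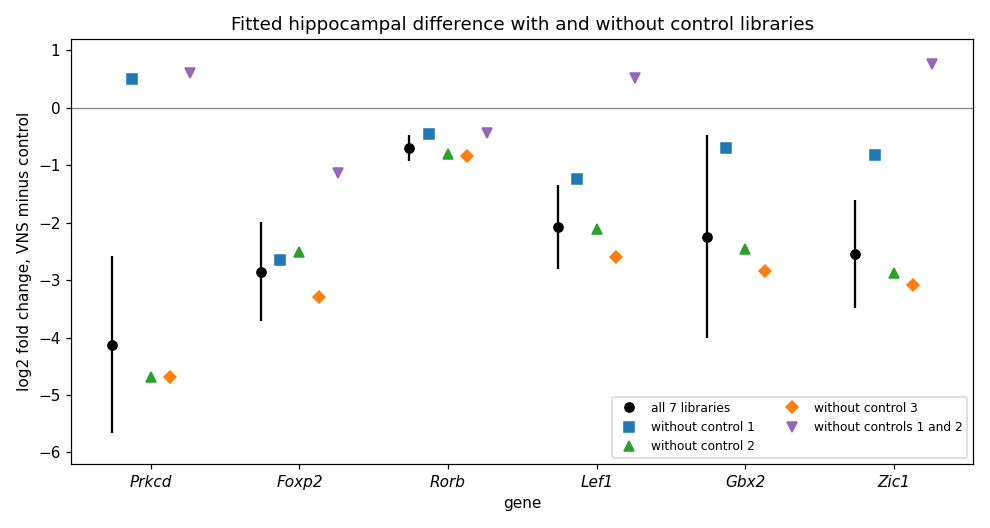
Fitted log2 difference, VNS minus control, for each gene with all 7 hippocampal libraries (black, bars of 1 SE) and with control libraries left out. Prkcd, Lef1 and Zic1 lie above 0 once control libraries 1 and 2 are left out (0.60, 0.52 and 0.75), and Gbx2 is not drawn for that setting.

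The balance among the 6 genes differed between libraries when levels were set per kilobase of record. In control library 1 the order was Prkcd (295 CPM per kb), Zic1 (51.8), Rorb (32.0), Lef1 (22.9), Foxp2 (4.59) and Gbx2 (4.03). The counting intervals of the last 2 overlapped. Control library 2 had Rorb first (20.8 CPM per kb), then Lef1 (11.8), Zic1 (10.8), Foxp2 (5.16), Prkcd (4.39) and Gbx2, the lowest. Rorb also led in control library 3 (19.8) and in VNS libraries 1, 3 and 4 (11.1, 19.1 and 14.4). In VNS library 2 Prkcd (15.3) and Rorb (15.1) were level. The ratio of Prkcd to Foxp2 per kilobase was 64.4 in control library 1 and 0.85 in control library 2. It was 3.51 in control library 3, and 28.4, 12.0, 8.54 and 8.48 in VNS libraries 1 to 4. Control libraries 1 and 2 thus shared high Foxp2 but not high Prkcd.

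**Figure D3:**
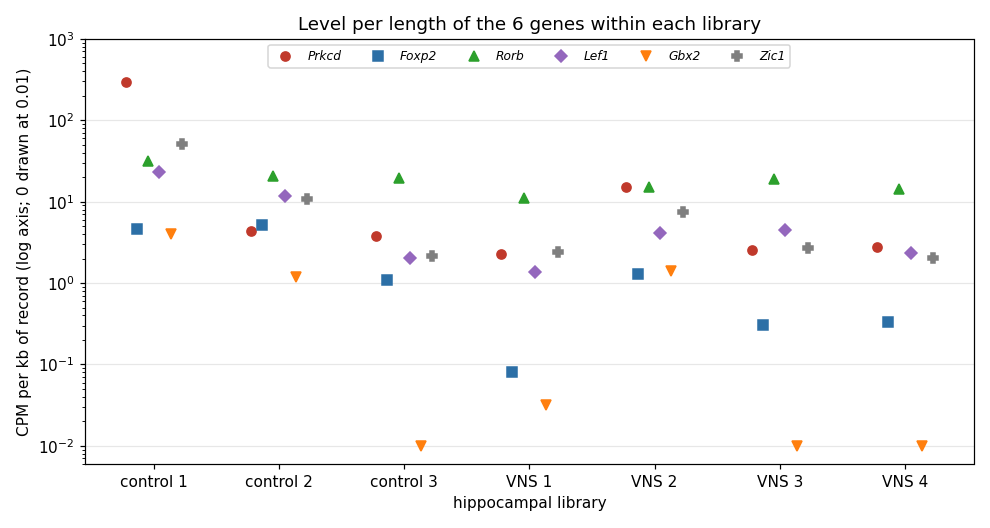
Level per length (CPM per kb of record, log axis, 0 drawn at 0.01) of the 6 genes in each hippocampal library. Prkcd leads at 295 in control library 1, whereas Rorb leads at 20.8 in control library 2 and 19.8 in control library 3.

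Across the 7 libraries the genes varied together to different degrees. Pearson r of log2 CPM (prior count 2) was highest for Gbx2 with Zic1 (0.93), Lef1 with Zic1 (0.92) and Prkcd with Zic1 (0.91). It was lowest for Rorb with Gbx2 (0.54) and Prkcd with Foxp2 (0.64). These are descriptions over 7 libraries that share the 2 divergent controls. The records most like each gene over the same libraries were taken by the highest r. For Prkcd these were Ostf1 (r = 0.98) and Wnt9b (0.98), a Wnt ligand at 117 CPM in control library 1 and at most 3.20 CPM in the other 6. Lef1 was nearest to Lrrc8a (0.99) and Hcn4 (0.99). Hcn4, a pacemaker channel gene, was at 61.1, 17.1 and 3.98 CPM in control libraries 1 to 3, and VNS libraries ran from 2.18 to 7.77 CPM. Foxp2 was nearest to Fhod3 (0.99) and Adamts19 (0.99), and Zic1 to Inpp4b (0.99) and Srpk2 (0.99). Gbx2 was nearest to Krt28 (0.99), at most 0.39 CPM in any library, and Piwil4 (0.97). Rorb was nearest to Elavl4 (0.98) and Prkab1 (0.97). Further records had a high r with each gene too, so those named are not the only ones alike. A high r also does not mean a change of equal size. Ostf1 ran only from 1.57 to 3.62 CPM and Srpk2 from 133 to 203 CPM.

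Other genes of thalamic relay neurons were also mostly highest in control library 1. Of 12 listed, 11 matched a record, 9 were tested, and Tnnt1 and Adarb1 were at 0 counts in all 7 libraries. None of the 9 passed in either direction. All 9 had a negative difference, with a median log2 difference of -2.32 against -0.007 over all records. Without control libraries 1 and 2, 2 of the 9 were negative and the median was 0.52, against 0.009 over all records. Control library 1 was highest for 7 of them and control library 2 for the other 2. Their summed level was 1533, 646 and 139 CPM in control libraries 1, 2 and 3, and 132, 274, 152 and 153 CPM in VNS libraries 1 to 4. Slc17a6 was at 379.7, 347 and 36.9 CPM in control libraries 1 to 3. VNS libraries 1 to 4 held 10.0, 66.8, 14.6 and 47.5 CPM. The controls held 403, 31.7 and 46.1 CPM of Plekhg1, and 312, 51.4 and 33.3 CPM of Ntng1, an axon guidance gene.

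Set against control library 3, the 2 divergent controls differed gene by gene. Prkcd was 77.6-fold higher in control library 1 and 1.15-fold in control library 2. Synpo2, chosen after its values were seen, was likewise at 86.0-fold and 2.55-fold. Foxp2 was at 4.24-fold and 4.77-fold and Slc17a6 at 10.3-fold and 9.42-fold. Calb2, a calcium-binding protein gene, and Lhx9, a LIM homeobox gene, were both singled out after their values were seen. Calb2 was at 9.69-fold in control library 1 and 27.1-fold in control library 2, and Lhx9 at 1.10-fold and 5.40-fold. These are ratios of single libraries and have no replicate check. VNS library 2 had the highest level of the 4 VNS libraries for 4 of the 6 listed genes and 7 of the 9 relay genes. The matching share over all records is not given here, and the listed genes were chosen from these libraries, so these counts are descriptions only.

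**Figure D4:**
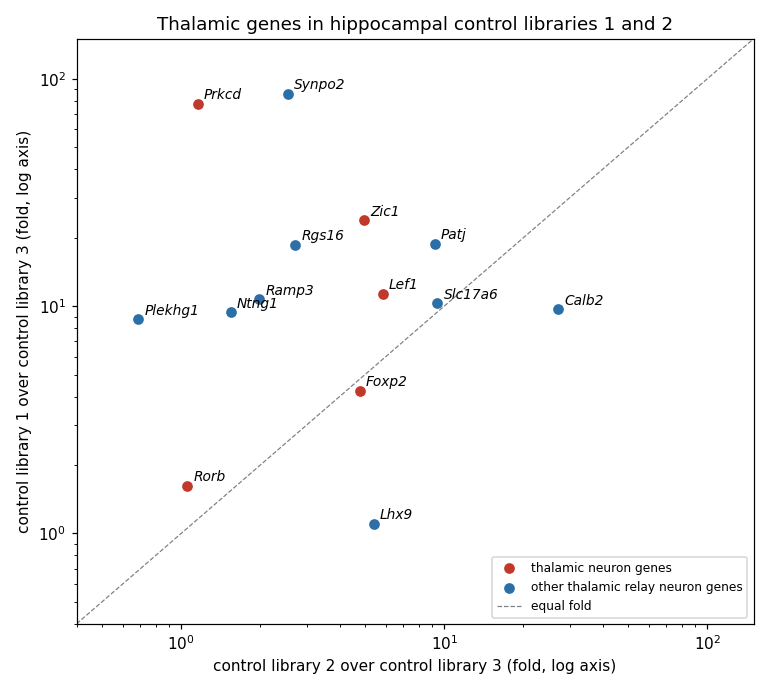
Fold over control library 3 in control library 2 (x, log axis) and control library 1 (y, log axis) for 5 of the listed genes (red) and 9 other relay genes (blue), with a dashed line of equal fold. Prkcd and Synpo2 lie far above the line at 77.6-fold and 86.0-fold in control library 1, Foxp2 and Slc17a6 lie near it, and Calb2 and Lhx9 lie below it.

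Markers of neighbouring regions moved in part with these genes. Each list's level is its mean log2 CPM minus its 7-library average. It was 3.08, 1.17 and -0.91 for the listed genes in control libraries 1, 2 and 3. VNS library 2 stood at 0.76 and VNS libraries 1, 3 and 4 at -1.69, -1.08 and -1.32. Midbrain and hindbrain genes (6 of 13 tested, Hoxb5 at 0) stood at 1.5, 1.57 and -0.83 in the controls. They were at 0.51 in VNS library 2 and -1.48 to -0.20 in the other VNS libraries. Summed over all 10 matched symbols, tested or not, the level was 11.2 to 141 CPM in controls and 7.02 to 20.5 CPM after VNS. The untested genes in this sum are not named here. Among the tested genes Th reached 47.6 CPM in control library 1, a part of the 141 CPM there, with at most 1.54 CPM elsewhere. Tal1 reached 32.4 CPM in control library 2, with at most 5.52 CPM elsewhere. Habenula genes (8 of 10 tested) stood at 0.83 in control library 1 and -0.47 to 0.30 in the other 6. Their summed level went the other way, at 38.3 and 12.4 CPM in control libraries 1 and 2 against 52.6 to 88.7 CPM in the other 5. Nr4a2, the most abundant of them, was at 8.96 and 4.09 CPM in those controls and 36.6 to 77.6 CPM elsewhere. Reticular thalamic and zona incerta genes (8 of 8 tested) stood at 1.19 in control library 1 and -0.50 to 0.47 elsewhere. The summed level of that list was lowest in control library 1, at 147 CPM against 184 to 211 CPM in the other 6. Hippocampal and forebrain genes took the opposite course, at -2.56 and -3.18 in control libraries 1 and 2 and 0.86 to 1.46 in the other 5. The part of each of these regions in the values of the listed genes was not tested.

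Close relatives of the listed genes did not all share their pattern. Of 28 tested Wnt/beta-catenin pathway records 0 passed in either direction, and 14 had a negative difference (median 0.006), or 11 (median 0.04) without control libraries 1 and 2. The 28 include Cacna1g, a calcium channel gene rather than a pathway component, which was negative in both settings (-0.49 and -0.08). Ctnnb1, which encodes beta-catenin itself, was at 335, 292 and 273 CPM in control libraries 1 to 3, and the VNS range was 231 to 302 CPM. Apc, a scaffold of its destruction complex, had a log2 difference of 0.56 (SE 0.28), and 0.11 without those 2 controls. Dkk3 had one of 0.99 (SE 0.53), and -0.01 without them. Dkk3 was at 45.5 and 87.8 CPM in the divergent controls and at 265 CPM in control library 3, within the VNS range of 221 to 335 CPM. Wnt3, a ligand chosen after its values were seen, was at 14.4, 9.91 and 0.75 CPM in control libraries 1 to 3, against 0.41 to 2.28 CPM in VNS libraries. Tcf7l1, the other TCF/LEF factor tested, was at 4.24, 3.88 and 3.62 CPM in the controls, beside 27.3, 14.0 and 2.40 CPM for Lef1.

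Among 9 tested records of protein kinase C genes, Prkcd included, 0 passed in either direction, and 3 had a negative difference, or 4 without control libraries 1 and 2. Prkce and Prkcz had log2 differences of 1.16 (SE 0.43) and 0.04 (SE 0.14), and of 0.26 and -0.12 without those controls. The 3 controls held 104, 111 and 343 CPM of Prkce, and the VNS libraries 351 to 527 CPM. Prkch, singled out after its values were seen, was at 55.3, 9.13 and 3.81 CPM in control libraries 1 to 3, against 3.97 to 7.33 CPM with VNS. Foxp1, the paralog of Foxp2, was at 22.1, 14.7 and 36.3 CPM in control libraries 1 to 3, and VNS libraries ran from 30.7 to 52.9 CPM. Zic2 was at 31.0, 11.9 and 11.8 CPM in control libraries 1 to 3, beside 12.6 to 15.1 CPM with VNS. Gbx1 did not pass the filter, and Rorb was the only ROR gene matched.

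RefSeq (GRCr8) held the 250 bases before an annotated start for 4 of the 6 genes. They are shown because Gbx2 was close to all or none between libraries, Rorb was the most even, and Prkcd held the single motif match. Of Lef1 only the bases outside the span of the gene are shown, and of Prkcd only the match and its flanks, since all of its window lies inside the span of the gene. Rorb is on the minus strand in GRCr8 and on the plus strand in rn5. Sequences run 5′ to 3′ on the strand of the gene, and capitals mark the match.
Gbx2, chr9:97959884-97960133, minus strand: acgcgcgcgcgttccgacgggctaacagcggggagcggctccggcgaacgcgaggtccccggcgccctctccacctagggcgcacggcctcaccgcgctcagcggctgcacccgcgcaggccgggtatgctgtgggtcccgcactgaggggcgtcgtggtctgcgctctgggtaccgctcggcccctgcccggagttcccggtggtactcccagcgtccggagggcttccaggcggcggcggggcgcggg
Rorb, chr1:225970974-225971223, minus strand: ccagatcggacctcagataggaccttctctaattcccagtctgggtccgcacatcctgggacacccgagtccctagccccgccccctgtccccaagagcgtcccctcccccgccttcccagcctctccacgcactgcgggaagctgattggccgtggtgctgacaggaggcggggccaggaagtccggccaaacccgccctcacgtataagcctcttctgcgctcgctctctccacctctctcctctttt
Lef1, chr2:222340463-222340540, plus strand: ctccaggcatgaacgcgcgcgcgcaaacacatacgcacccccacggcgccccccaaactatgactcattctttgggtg
Prkcd, chr16:5806041-5806070, minus strand: cctgaggaggggTGACCTgcgtgccactgg
Over the 250 bases before each start, GC content was 76.4% for Gbx2, 64.0% for Rorb, 63.2% for Lef1 and 67.6% for Prkcd, against a median of 51.2% over 33469 promoters. Both strands were searched for CTTTGA (TCF/LEF), TGTTTAC (forkhead), AGGTCA (nuclear receptor half-site, as used by ROR factors) and TAATTA (homeobox). These letters occur in 13.9%, 3.21%, 14.1% and 4.86% of the promoters. The only match was AGGTCA in Prkcd, read on the opposite strand as TGACCT with its first base at -219 from the start and inside the span of the gene. A match is a description of the letters in this window.

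In the cortex, libraries that played no part in the choice of genes, none of the 6 was among the 3884 records tested. The files hold 17 counts of Prkcd over the 8 cortex libraries, 50 of Foxp2, 28 of Rorb, 36 of Lef1, 5 of Gbx2 and 10 of Zic1. Cortex libraries held 329130 to 435296 counts, and 1 read was worth 2.36 to 3.28 CPM. Opposite-strand exon overlap touched 3.79% of records, yet these took 35.5% of the cortex counts and 9.58% of the hippocampal counts. The labels name a stranded kit and the file header strand option 1, so cortex counts may not measure the gene they are listed under. Of the tested records 1 (0.0257%) passed an adjusted p of 0.05 with edgeR, and 2.39% had an unadjusted p under 0.05. All VNS libraries lay above all controls for 1.26% and below them for 1.03%, in total 2.29%, and 52.1% had a negative difference. Prkcd held 3, 0, 1 and 0 counts in control libraries 1 to 4 and 6, 4, 2 and 1 counts in VNS libraries 1 to 4. For Foxp2 the controls held 17, 4, 7 and 1 counts and the VNS libraries 7, 7, 0 and 7. The groups overlapped for both genes, as for the other 4. An exact two-sided permutation test over the 4 VNS and 4 control libraries gave p = 0.20 for Prkcd, 0.66 for Foxp2 and Rorb, 0.74 for Lef1 and 1.0 for Gbx2 and Zic1, where 0.0286 is the smallest p possible. Fitted without a filter over 13006 records, the cortex log2 difference of Prkcd was 1.54 (adjusted p = 0.99, edgeR) and that of Foxp2 -0.51 (adjusted p = 0.9998, edgeR). No difference between VNS and control was detectable in these cortex counts at this depth. Because the counts may not measure the genes they are listed under, these tests cannot decide the question for the genes themselves.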

How the data were processed

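The authors deposited raw read counts per RefSeq transcript record for 8 cortex (polyA-selected) and 7 hippocampus (ribosome-depleted) libraries, made with featureCounts 1.4.6-p2 on rn5 per the file headers. The submitters' processing notes also name FastQC 0.10.1, Trimmomatic, Bowtie2 and SAMtools 0.1.19. Hippocampal reads were counted without regard to strand, so opposite-strand genes cannot be told apart there. No record of the matched listed genes overlapped another record on the opposite strand by exon. Transcripts outside these records were not examined. No count column was left unmapped, and 1 cortex column, whose name adds a letter to the description, was assigned to its only match. Symbols came from a RefSeq table of GRCr8 (17339 of 18278 records), used for names only. Record coordinates are rn5. Depth ran from 16728486 to 51463555 counts in hippocampus.

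Records kept by filterByExpr (minimum count 10, minimum total 15) were scaled by TMM and tested per tissue with edgeR 4.0.16 (glmQLFit, glmQLFTest, R 4.3.3), two-sided, with Benjamini-Hochberg adjustment at 0.05. The SE is the absolute log2 difference divided by the square root of F. The test was checked on simulated data. DESeq2 1.42.0 and limma-voom (limma 3.58.1) were alternatives. Replicates were numbered in accession order, and p-values measure the spread between these libraries, which may be technical. Genes and lists were chosen with earlier results of these data known. From each list up to 3 genes of highest mean CPM were named, and per listed gene the 2 records of highest r, with placeholder symbols skipped. Some genes that this rule names are not reported here. Cerebellar, striatal, hypothalamic, meningeal, choroid plexus, oligodendrocyte and astrocyte lists were measured too.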

Additional observations from a re-analysis of the deposited data

Results flagged for a closer look

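In hippocampal VNS libraries, VNS library 2 stood far from the other 3 for Prkcd (41.2 CPM, next 7.53 CPM), Gbx2 (1.99 CPM, next 0.044 CPM) and Zic1 (10.1 CPM, next 3.66 CPM). In cortex, Zic1 was at 22.4 CPM (7 counts) in control library 3 and at 0 in the other 3 controls. It was at 8.92 CPM (3 counts) in VNS library 2 and at 0 in the other 3 VNS libraries. Gbx2 was at 5.50 CPM (2 counts) in cortex VNS library 4 and at 0 in the other 3. Foxp2 was at 0 CPM in cortex VNS library 3, where the next was at 19.3 CPM (7 counts). In each case the gap to the nearest library was large against the range of the 4. Of 18 sets of 4 libraries examined 7 stood out in this way. Chance gives about 1 in 20 for independent continuous values, a rate that does not apply here. The 3 hippocampal cases share 1 library and come from values used to choose the genes, and the 4 cortex cases rest on 0 to 7 counts.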

How the results depend on the processing

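No record passed in hippocampus with edgeR, 17 passed with DESeq2, and leaving out each library in turn gave 0 to 1377, with 1377 only without control library 3. In cortex 1 record passed, against 5 without a filter, 6 with a filter of 1 CPM in 3 libraries, 0 with limma-voom and 0 to 4 on leaving out each library. The 4 came without control library 1, and 0 on leaving out control library 2, 3, 4 or VNS library 1, 4. The cause was not tested. For the listed genes in hippocampus, 82 of 89 differences under other settings moved by less than 1 SD of the log2 CPM of single libraries within groups, a spread wider than the SE, as did 6 of 6 under a prior count of 0.5. The other 7 came from leaving out control library 1, or control libraries 1 and 2. In 5 of these 7 the value turned positive. These were Prkcd without control library 1 and Prkcd, Lef1, Zic1 and Gbx2 without both, where the fitted Gbx2 value rests on a control at 0 and is not given. Without VNS library 2, Gbx2 did not pass the filter and has no value. No paired analysis was possible because the labels give no replicate numbers. Depth limits Gbx2 and VNS library 3 in hippocampus and all 6 genes in cortex, where the strand option is a further limit.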

Other observations

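The lists of other cell types also varied between hippocampal libraries. Oligodendrocyte genes (9 of 9 tested) stood at 0.92, 0.47 and 0.03 in control libraries 1, 2 and 3 (log2 relative to the 7-library mean) and at -0.65, -0.23, -0.82 and 0.28 in VNS libraries 1 to 4. Choroid plexus genes (6 of 6 tested) stood at 1.76, 0.56 and -0.31 in the controls and at 0.53, -0.24, -1.97 and -0.32 in VNS libraries 1 to 4. The value of VNS library 3 rests on few reads, as 1 read was worth 0.203 CPM there. In that library Ttr and Kcne2 were at 0.81 CPM, Aqp1 at 0.41 CPM, and Kl, Folr1 and Clic6 at 0. Striatal genes (8 of 9 tested, Tac1 at 0) stood at 1.4, 0.01 and -0.13 in the controls and at -0.93 to 0.20 with VNS. Hypothalamic neuropeptide genes (7 of 9 tested, Pmch at 0) were highest in VNS library 1, at 1.4, against -0.58 to 0.26 in the other 6. Trh, the most abundant of them, was at 44.3 CPM there but at 47.3 CPM in control library 1. Hcrt, Crh, Gal, Agrp and Avp were at most 2.13 CPM in any library. Cerebellar genes (4 of 8 tested) stood at -0.41, 0.61 and -0.05 in the controls and at -0.96, 0.90, 0.35 and -0.44 in VNS libraries 1 to 4. Meningeal genes stood at 0.28, -0.15 and -0.33 in the controls and at 0.02, 0.51, -0.03 and -0.30 with VNS. Astrocyte genes (6 of 8 tested, Aqp4 and Slc1a3 at 0) stood at 0.16, 0.48 and -0.17 in the controls and at -0.29 to 0.08 with VNS. No member of these lists passed the edgeR test.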
